A study of Mus musculus with 4 samples.

Results

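The genes described here carry the names of the proteins of the cytosolic ribosome, and most encode them. Members were chosen by gene symbol: names that begin with Rpl or Rps and a number, together with Rpsa, the stalk genes Rplp0, Rplp1 and Rplp2, and the paralogs Rpl36al, Rpl22l1, Rpl39l and Rps27l. Names that contain -ps or rt and those of unrelated kinases were left out. Of the 26687 genes in the deposited tables, 90 matched these names, and the 86 with a mean of at least 5 CPM (counts of a gene per 1000000 counts of its library) over the libraries are the members, 51 named for the large and 35 for the small subunit. The annotation lists 5 of the 86, Rpl6l, Rpl32l, Rps3a2, Rps3a3 and Rps4l, as processed pseudogenes, which the rule on names does not leave out. The 4 matching genes under that level were the paralogs Rpl39l, Rpl3l and Rpl10l and the pseudogene Rps12l1. Rpl39l gave 7 unique molecular identifiers (UMIs, each standing for 1 captured RNA molecule) in the Mx library, 20 with NPMc+, 27 with Flt3-ITD and 1 in NPMc+/Flt3-ITD. Rpl3l gave 3, 4, 19 and 27 UMIs in the same order, and Rpl10l and Rps12l1 gave 1 UMI each, both in the NPMc+ library.

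The study profiled long-term hematopoietic stem cells of C57BL/6 mice aged 8 to 11 weeks, sorted from crushed limb bones and sternum and loaded at once on droplets with a 3′ kit that counts the end of each transcript. There was 1 library for each of 4 genotypes: Mx (the labels give MxCRE, a Cre recombinase under an interferon-inducible promoter, and name this library as the reference control), NPMc+ (a cytoplasmic mutant of nucleophosmin), Flt3-ITD (an internal tandem duplication of the receptor Flt3) and NPMc+/Flt3-ITD, here the double mutant. The labels name MxCRE for the control only, and they do not say how many animals were pooled or what induced the Cre. Because each genotype is 1 library, genotype and library cannot be told apart, no p-value was computed, and each 95% interval covers counting error only.

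Ribosomal proteins assemble with ribosomal RNA into a large subunit, which forms peptide bonds, and a small subunit, which decodes the messenger RNA. Their messenger RNAs are among the most abundant of any cell, and many begin with a run of pyrimidines through which their translation responds to growth signals. In hematopoietic stem cells the rate of protein synthesis is kept low, and loss of 1 copy of certain members, among them RPS19, RPL5 and RPL11, causes Diamond-Blackfan anemia in people.

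The starts of the members with the lowest and the highest double mutant to Mx ratios are shown because the pyrimidine run lies there. Each window is 30 bases of RefSeq sequence (GRCm38.p6, 5′ to 3′ on the gene's strand), 10 before the annotated start and the rest from it. The search was for a C followed by at least 4 letters that are C or T, on the gene's strand, beginning within 5 bases of the annotated start; capitals mark such a run. The 4 lowest members were:
Rpl36al, chr12:69184048-69184077, minus strand: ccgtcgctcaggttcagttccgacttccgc
Rps28, chr17:33824543-33824572, minus strand: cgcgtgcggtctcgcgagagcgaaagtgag
Rpl27, chr11:101442235-101442264, plus strand: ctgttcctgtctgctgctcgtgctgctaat
Rpl24, chr16:55966265-55966294, plus strand: gctgttgctaggaaacagactgggcgctcg
Of the 4 highest members, Rpl6l had no entry, and the other three were:
Rpl4, chr9:64173377-64173406, plus strand: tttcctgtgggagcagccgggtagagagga
Rpl10, chrX:74270806-74270835, plus strand: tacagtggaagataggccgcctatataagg
Rps3, chr7:99483690-99483719, minus strand: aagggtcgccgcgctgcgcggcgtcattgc
None of these 7 windows held a run by this rule. For comparison, the 3 lowest members with a run, chosen after their values were seen, were:
Rpl39, chrX:37085203-37085232, minus strand: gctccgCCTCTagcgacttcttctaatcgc
Rps21, chr2:180257369-180257398, plus strand: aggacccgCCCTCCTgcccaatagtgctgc
Rpl31, chr1:39367841-39367870, plus strand: tcctcgCCTCCCCgtgacccggaagttgta
The 3 highest members with a run were:
Rps2, chr17:24720053-24720082, plus strand: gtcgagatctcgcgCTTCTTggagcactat
Rps6, chr4:86857348-86857377, minus strand: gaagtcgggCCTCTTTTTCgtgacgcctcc
Rpl7a, chr2:26910797-26910826, plus strand: ctcttCTTTCTTTCTCCagcagccgagcaa
A run was found in 30 of the 62 members with a window (48.4%), against 5718 of 27025 genes with a window (21.2%), so members held the run more often than genes at large. The result depends on the RefSeq start: the Rpl27 window ends at 101442264, while the GENCODE annotation starts that gene at 101442298. Runs at other starts were not counted, so a member without a run here may still carry it.

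Filtering kept 10608 of 11407 cell barcodes, 2519 in Mx, 2375 with NPMc+, 2393 with Flt3-ITD and 3321 in the double mutant, with median depths of 7323 to 9466 UMIs per cell. Between pairs of libraries, 52 barcodes were kept in both. The labelled cell type was checked against 10 stem cell markers (Procr, Hlf, Mecom and others), which summed to 996 CPM in Mx, 843 with NPMc+, 493 with Flt3-ITD and 632 in the double mutant. At least 3 of them were seen in 80.6%, 73.9%, 53.1% and 43.7% of cells. The double mutant library stood apart: 10 T-lineage markers summed to 1423 CPM there against 19.4 to 22.9 in the other libraries, with none of the 10 at 0 in any library, and 32.9% of its cells held at least 3 of them against at most 0.460% elsewhere. B cell markers were highest in NPMc+ (1390 CPM against 45.7 to 195), as were megakaryocyte markers (1005 CPM against 224 to 277). Each library held cells with Y-linked RNA and no Xist as well as cells with Xist and no Y-linked RNA. Numbers were 1218 against 583 in Mx, 1155 against 495 with NPMc+, 987 against 773 with Flt3-ITD and 2425 against 179 in the double mutant.

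Ribosomal protein RNA was a large part of what was captured, and a smaller part in the double mutant. Members made up 30.9% of all UMIs in Mx, 29.4% with NPMc+, 28.9% with Flt3-ITD and 21.05% in the double mutant. The 3 other libraries thus lay within a narrow band and the double mutant far below it. Over single cells the median share was 30.8% in Mx (quartiles 29.1% to 32.6%), 29.3% with NPMc+ (27.4% to 31.1%), 28.9% with Flt3-ITD (26.9% to 30.6%) and 20.7% in the double mutant (18.5% to 22.4%). The upper quartile in the double mutant was below the lower quartile in each of the other libraries. Both subunits took part: the large subunit held 17.3% of UMIs in Mx and 11.8% in the double mutant, and the small subunit 13.6% and 9.26%. The ratio of large to small subunit UMIs stayed between 1.26 and 1.27 in all 4 libraries.

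**Figure D1:**
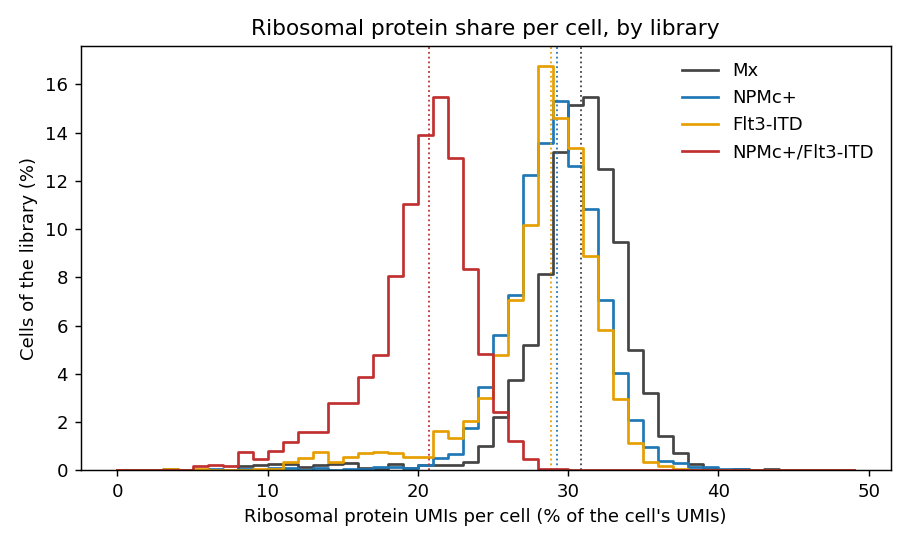
Distribution over single cells of the share of a cell's UMIs that came from ribosomal protein genes (x axis, %), as the percent of each library's kept cells per bin (y axis); dotted lines are library medians. The medians of Mx, NPMc+ and Flt3-ITD lie between 28.9% and 30.8%, and that of the double mutant at 20.7%.

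The lower share was found at every depth and in each kind of cell examined. In the third of double mutant cells with the most UMIs the median share was 22.0%, still below the 27.0% to 29.9% found in the third with the fewest UMIs of the other libraries. In the double mutant it was 19.8% in cells with T-lineage markers and 20.97% in cells without them. Cells with 3 stem cell markers had a median share of 31.0% in Mx, 29.3% with NPMc+, 29.4% with Flt3-ITD and 21.4% in the double mutant. Cells with Y-linked RNA had 30.6% in Mx and 20.8% in the double mutant, and cells with Xist RNA 31.7% and 21.5%. The double mutant was thus about as far below Mx within each of these groups as over all cells.

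Cells with 3 of 12 cycling markers (Mki67, Top2a and other genes of mitosis) had a lower median share than the remaining cells in 3 libraries: 28.8% against 31.0% in Mx, 28.3% against 29.5% with NPMc+ and 28.2% against 29.0% with Flt3-ITD. In the double mutant the values were 20.98% against 20.7%, with median depths of 12530 UMIs in cycling and 6734 in the remaining cells. After each cell was thinned to 3000 UMIs, the difference between the same groups was 0.067 percentage points in the double mutant and still below 0 in the other libraries, from -2.53 in Mx to -1.03 with Flt3-ITD. When the groups were called again on the thinned cells, 258 in place of 563 double mutant cells were called cycling, and their median was 19.9% against 21.1%. Cells with 3 stem cell markers had a higher share than the rest in all 4 libraries, also after thinning of the same groups. With groups called again on thinned cells this order turned in NPMc+ (29.1% against 29.5%), where 711 in place of 1754 cells then held 3 markers.

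The change in the double mutant was not the same for each member. A gene is called higher here at 25% or more above the CPM of the library it is compared with, and lower at 80% of it or less. Against Mx, 56 of 86 members were called lower and 5 higher. Over all 10234 genes with the same minimum level, 19.5% were called lower and 32.5% higher, and over the 1579 genes at 100 CPM or more, 16.7% and 46.5%. At the stricter limit of 1.5-fold, 48 members were lower and 1 higher, with 12.2% and 12.8% of all genes. The median log2 ratio of the members was -0.78, against 0.14 over all genes. The choice of library total matters for small differences: with mitochondrial and ribosomal protein UMIs left out of the total, every log2 ratio in this comparison was lower by 0.21, so values from 0 to 0.21 change sign, the median over all genes became -0.07 and 1 member was called higher. The median was -0.78 for the large subunit (31 of 51 lower, 4 higher) and -0.78 for the small subunit (25 of 35 lower, 1 higher), so the subunits did not differ in their median, while the members within each ranged over more than 3 log2 units.

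The lowest member was Rpl36al, an autosomal paralog of the X-linked Rpl36a that encodes a nearly identical large subunit protein (chr12:69182731-69184083, minus strand, GRCm38). It gave 517 CPM in Mx, 362 with NPMc+, 420 with Flt3-ITD and 74.8 in the double mutant, 6.91-fold lower than in Mx (95% interval 6.59 to 7.25). UMIs for it were found in 92.4% of Mx cells and 41.0% of double mutant cells. The X-linked Rpl36a was lower as well but by less, with 3098, 2794, 2785 and 1094 CPM.

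Rps28, which lies near the messenger RNA exit of the small subunit (chr17:33819027-33824562, minus strand), gave 2601 CPM in Mx, 1350 with NPMc+, 1936 with Flt3-ITD and 399 in the double mutant, 6.53-fold lower than Mx (6.39 to 6.66). All 3 mutant libraries were below Mx, and the double mutant was below both single mutants. Rpl27 (chr11:101442298-101445529, plus strand) gave 1938, 1446, 1605 and 322 CPM, 6.02-fold lower in the double mutant (5.88 to 6.16). Rpl24, which forms a bridge between the subunits (chr16:55966275-55971435, plus strand), gave 1815, 1328, 1237 and 328 CPM and was 5.53-fold lower (5.40 to 5.66). These members with the lowest ratios to Mx in the double mutant were also lower in both single mutants, by 1.93-fold at most.

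At the other end, Rpl4 (chr9:64173375-64178666, plus strand), a large protein that lines the exit tunnel for the new peptide, gave 3358 CPM in Mx, 3554 with NPMc+, 3623 with Flt3-ITD and 4294 in the double mutant, 1.28-fold higher than Mx (1.27 to 1.29). Rpl10 (chrX:74270812-74273135, plus strand), which joins the large subunit late in its maturation, gave 3915, 4306, 3908 and 4969 CPM and was 1.27-fold higher. Rps3 (chr7:99477896-99483738, minus strand), at the messenger RNA entry of the small subunit, gave 4326, 4686, 4438 and 5489 CPM and was 1.27-fold higher. Rpl3, next to the peptidyl transferase center, gave 5433, 4946, 5162 and 6873 CPM. All of these were highest in the double mutant, with a log2 ratio to Mx of 0.35 for Rpl4. Over genes at 100 CPM or more the median was 0.29, and 46.5% were called higher. With mitochondrial and ribosomal protein UMIs left out of the total, none of these members was called higher. The largest ratio belonged to Rpl6l, which the annotation lists as a processed pseudogene of Rpl6 (chr10:111125851-111126721) and which can share reads with it: it gave 78.2 CPM in Mx, 128 with NPMc+, 120 with Flt3-ITD and 149 in the double mutant, 1.90-fold higher than Mx (1.79 to 2.01).

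**Figure D2:**
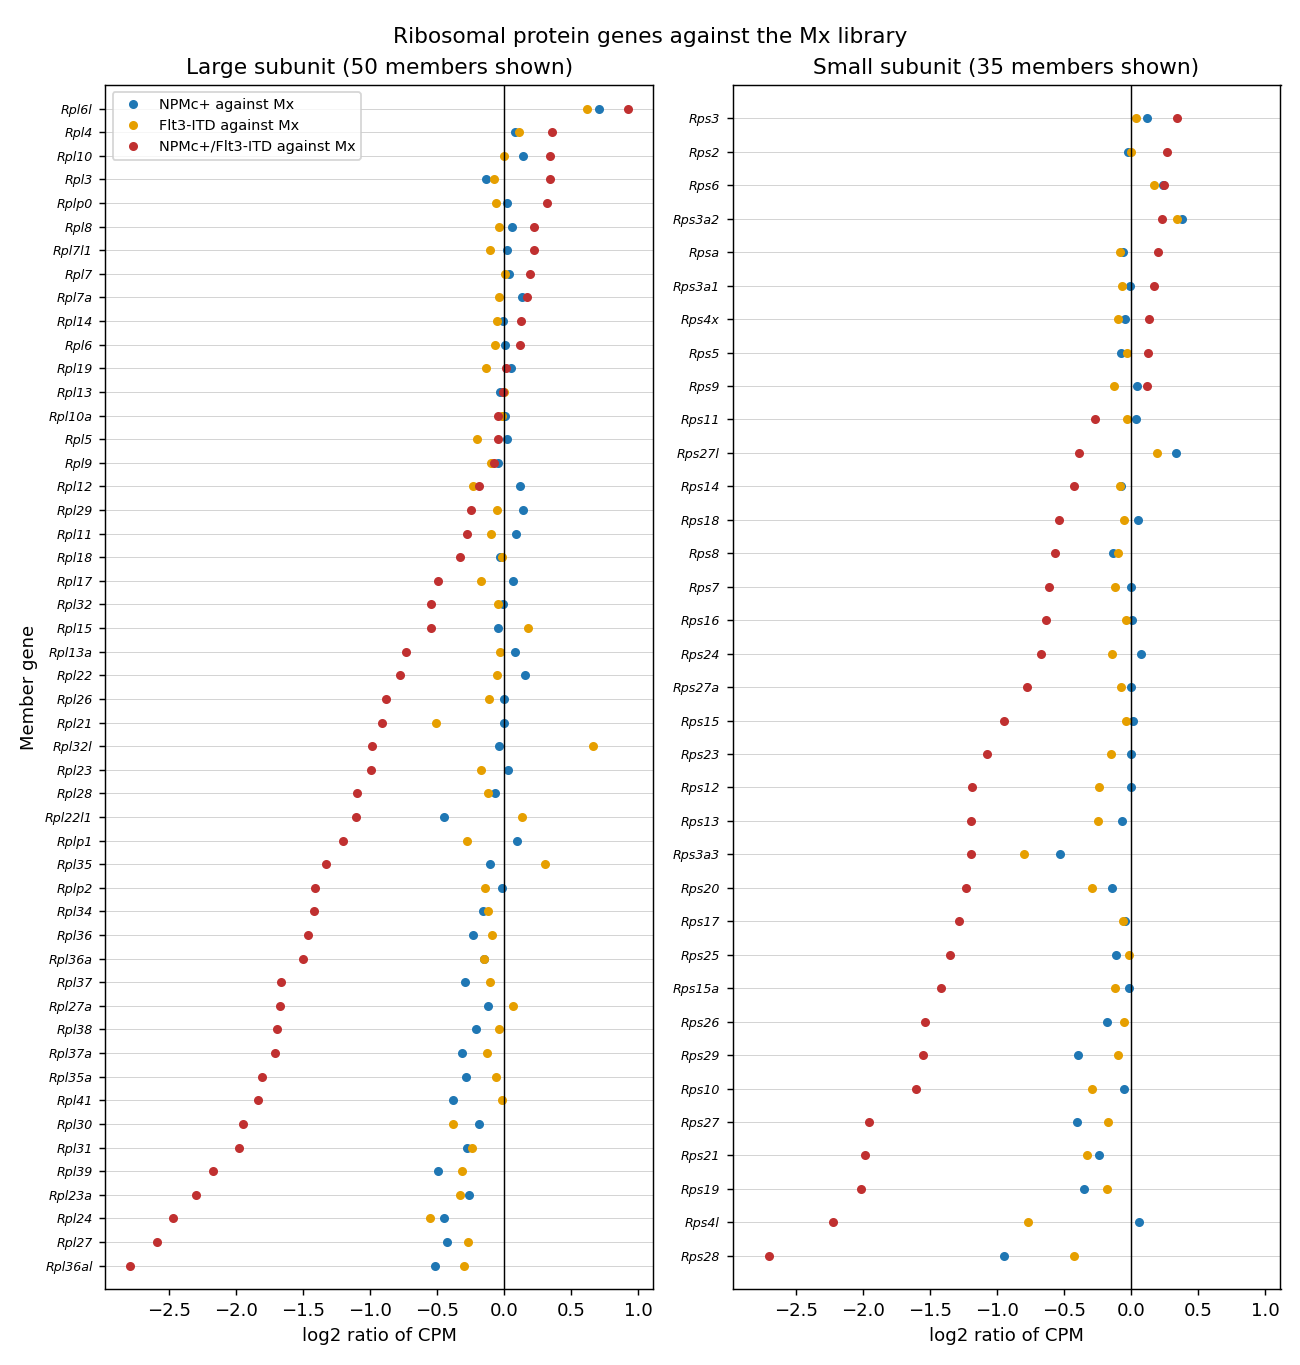
Log2 ratio of CPM against the Mx library (x axis) for 85 of the 86 members (y axis, ordered by the double mutant ratio), large subunit at left and small subunit at right; points are NPMc+, Flt3-ITD and NPMc+/Flt3-ITD, 1 library each. The double mutant points run from -2.79 for Rpl36al to 0.93 for Rpl6l, while most points of the single mutants lie close to 0.

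Members of one functional unit of the ribosome parted from each other. The stalk of the large subunit, which recruits the translation GTPases, is built from Rplp0 and several copies of Rplp1 and Rplp2. Rplp0 gave 6229 CPM in Mx, 6315 with NPMc+, 5977 with Flt3-ITD and 7779 in the double mutant. Rplp1 gave 4318, 4609, 3558 and 1879 CPM, and Rplp2 gave 4014, 3961, 3638 and 1513 CPM. In the double mutant Rplp0 was thus the highest of the 4 libraries, at a log2 ratio to Mx of 0.32, and Rplp1 and Rplp2 were the lowest, at -1.20 and -1.41. The coding sequence of Rplp0 has 951 nucleotides, that of Rplp1 342 and that of Rplp2 345, and ratios are set against length below.

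Rpl5 and Rpl11 join 5S ribosomal RNA in a particle that also binds and holds Mdm2, the ligase of p53. Rpl5 gave 1451 CPM in Mx, 1473 with NPMc+, 1262 with Flt3-ITD and 1403 in the double mutant, and Rpl11 gave 3766, 3995, 3522 and 3107 CPM. Neither was called against Mx in the double mutant (log2 ratios of -0.05 and -0.28).

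A list, not meant as complete, held 9 members whose human counterparts are mutated in Diamond-Blackfan anemia. Of these, 7 were called lower in the double mutant than in Mx, none higher, and Rpl5 and Rpl11 were the exceptions. Rpl5 has a coding sequence of 891 nucleotides and Rpl11 of 534, and the other 7 run from 330 (Rpl35a) to 582 (Rps7). Among all members 56 of 86 were lower, and over all genes tested 19.5% were lower and 32.5% higher. Rps19, of the small subunit head, gave 7320 CPM in Mx, 5730 with NPMc+, 6446 with Flt3-ITD and 1806 in the double mutant, a log2 ratio of -2.02. Rps14, whose loss is linked to the 5q- syndrome, was among the 4 members with the highest mean levels and changed by less, with 7305, 6915, 6874 and 5426 CPM (log2 ratio -0.43). Rpsa, a small subunit protein also known as the laminin receptor, gave 3188, 3053, 3008 and 3653 CPM and was not called.

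The paralog pairs were followed separately. Rpl22, which restrains its own paralog, gave 1417 CPM in Mx, 1579 with NPMc+, 1369 with Flt3-ITD and 827 in the double mutant. Rpl22l1 gave 1775, 1298, 1952 and 827 CPM, so both were lower in the double mutant, while in NPMc+ Rpl22l1 was called lower than in Mx and Rpl22 was not (with TMM scaling, neither). Rps27 gave 5632, 4242, 4995 and 1452 CPM. Its paralog Rps27l, a p53-induced gene in mouse and human cells, gave 371, 468, 424 and 283 CPM: the single mutants were above Mx and the double mutant below it. Rpl39, one of the shortest members, gave 3636, 2579, 2922 and 809 CPM. Rpl7l1, a paralog of Rpl7 that acts in ribosome assembly, gave 123, 125, 114 and 143 CPM.

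Rpl13 and Rpl32 were also at the top of the abundance range. The 3′ kit counts 1 end per transcript, so CPM was not divided by length when levels of different genes were set side by side. Rpl13 gave 7567 CPM in Mx, 7398 with NPMc+, 7557 with Flt3-ITD and 7540 in the double mutant, close to level across the libraries. Rpl32 gave 7741, 7713, 7499 and 5299 CPM. The 4 lowest by mean, Rpl32l, Rps3a2, Rps4l and Rps3a3, are all processed pseudogenes in the annotation, at mean levels of 9.27 to 40.6 CPM, and share reads with their parent genes to a degree that was not tested.

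Members sorted by the length of their coding sequence in the double mutant. This split was chosen after the values were seen. In GENCODE M21, 81 of the 86 members have a coding length, and the 5 without one are the pseudogenes named above. Coding sequences under 300 nucleotides (nt) belonged to 10 members, and all 10 were called lower in the double mutant than in Mx, with a median log2 ratio of -1.77. From 300 to under 450 nt, 29 of 29 were lower (median -1.33). From 450 to under 600 nt, 11 of 19 were lower (median -0.43). From 600 to under 900 nt, 3 of 20 were lower and 2 higher (median 0.15). The 3 members at 900 nt or more, Rpl3, Rpl4 and Rplp0, had a median of 0.34.

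Across the 81 members, Spearman's rho between the double mutant to Mx ratio and coding length was 0.85, and it was 0.86 over the 49 of the large and 0.80 over the 32 of the small subunit. With transcript length it was 0.65, with mean CPM 0.43 and with GC content 0.06. Lengths are those of a single annotated transcript per gene, which for Rps20 was 3706 nt with a coding sequence of 357 nt. Whether that transcript is the one captured was not tested, so the values for coding and transcript length cannot be ranked. All these values come from the same pair of libraries and members are not replicates, so they are descriptions. In NPMc+ against Mx rho with coding length was 0.54, and the 10 shortest had a median log2 ratio of -0.35. In Flt3-ITD against Mx rho was 0.33, and the 10 shortest had a median of -0.12. Members that depart from the order by length include Rpl24 and Rpl23a, which are of middle length (471 and 468 nt) and among the 5 lowest, and Rps27l, which is short (252 nt) and had a log2 ratio of -0.39.

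**Figure D3:**
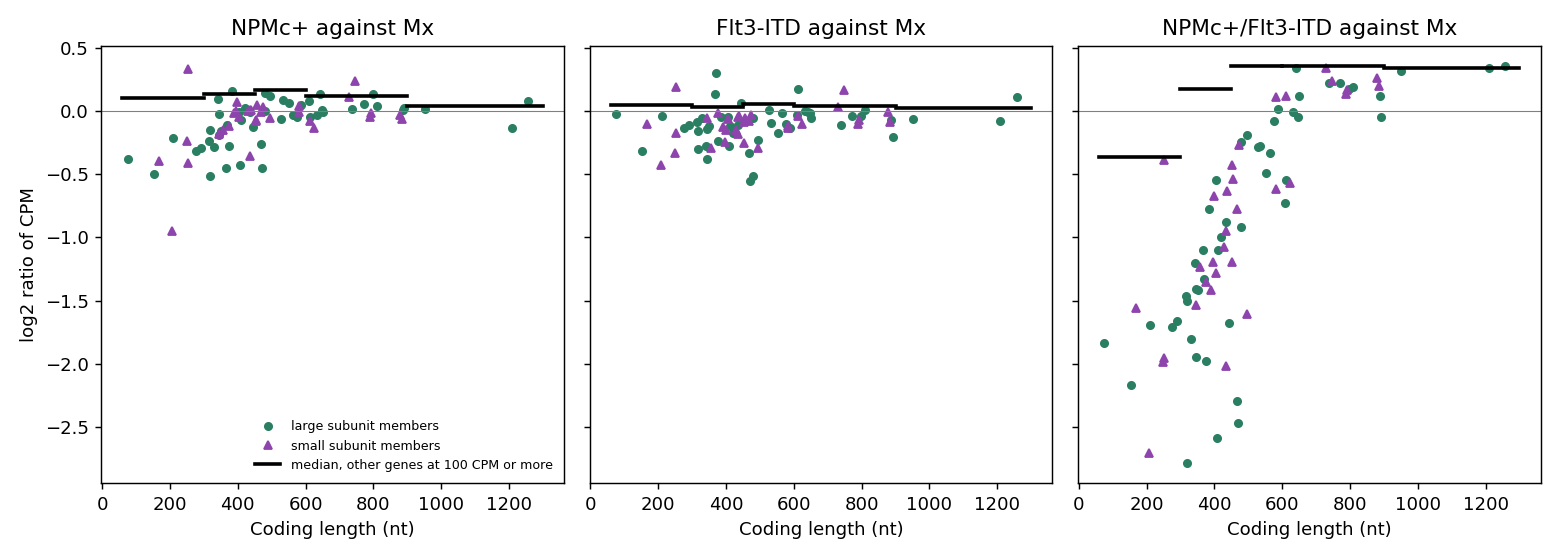
Log2 ratio of CPM against the Mx library (y axis) by coding length in nt (x axis) for the 81 members with a coding length, in NPMc+, Flt3-ITD and the double mutant; black bars are medians of all other genes at 100 CPM or more in the same length range (the last is drawn to the end of the axis). In the double mutant the members rise with length from a median of -1.77 under 300 nt to 0.34 at 900 nt or more, and the other genes under 300 nt have a median of -0.37.

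The shortest genes outside the ribosome were often lower as well. Among other genes at 100 CPM or more with a coding length under 300 nt, 51 of 100 were called lower in the double mutant than in Mx (51.0%, median log2 ratio -0.37), against 6.54% of the 657 at 900 nt or more (median 0.34). Sorted by transcript length instead, 75.8% of the 33 under 450 nt were lower (median -1.28). From 450 to under 600 nt of transcript, 67.2% of 67 were lower (median -0.73), against 95.7% of 23 members (median -1.20). Snrpg, a core protein of the spliceosome with a 228 nt coding sequence, gave 565 CPM in Mx, 430 with NPMc+, 564 with Flt3-ITD and 125 in the double mutant. Cox7c, a subunit of cytochrome c oxidase (189 nt), gave 569, 503, 558 and 200 CPM. By coding length, members were called lower more often than the other genes at 100 CPM or more in each range under 900 nt. Under 300 nt all 10 members were lower (median -1.77). From 300 to under 450 nt, 24.6% of 191 other genes were called lower (47 genes), 61 were called higher, and the median was 0.18. All 29 members of that coding length were lower. From 450 to under 600 nt, 4.05% of 173 other genes were lower (median 0.36), against 57.9% of 19 members (median -0.43). From 600 to under 900 nt, 5.86% of 307 other genes were lower, against 15% of 20 members. Over all other genes tested under 300 nt, with no higher minimum level, 40.4% of 218 were lower and the median was -0.06. Not every short gene was lower: Tmsb4x, an actin-binding peptide (132 nt), gave 1989, 3575, 2449 and 2982 CPM. Among other genes at 100 CPM or more, a median below 0 was thus found only under 300 nt by coding length. By transcript length it was found up to 600 nt. The part of length in these differences was not tested.

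The shift was present cell by cell. The UMIs of the 10 members under 300 nt were divided by those of the 23 members of 600 nt or more in each cell, and the median ratio was 0.422 in Mx, 0.324 with NPMc+, 0.387 with Flt3-ITD and 0.111 in the double mutant. The 95th percentile in the double mutant, 0.156, lay below the 5th percentile of the other libraries (0.274 with NPMc+, 0.323 with Flt3-ITD and 0.357 in Mx). Within the double mutant the median was 0.119 in cells with T-lineage markers and 0.108 in cells without them. It was 0.107 in cells with stem cell markers, 0.105 in cycling cells, 0.111 in cells with Y-linked RNA and 0.110 in cells with Xist RNA. Every group of cells examined in the double mutant thus had nearly the same ratio.

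**Figure D4:**
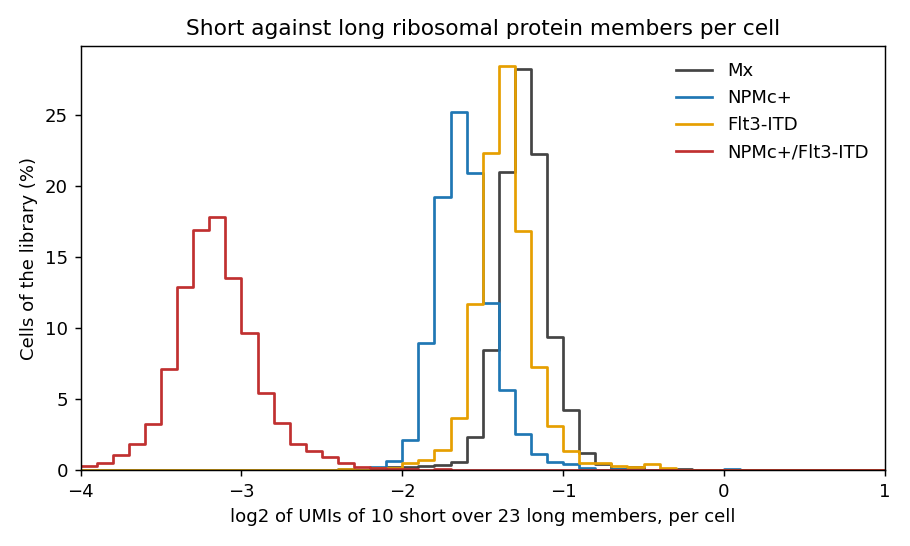
Distribution over single cells of the log2 ratio of UMIs from the 10 members with coding sequences under 300 nt to UMIs from the 23 members of 600 nt or more (x axis), as the percent of each library's kept cells (y axis). The double mutant forms a separate peak, with a median unlogged ratio of 0.111 against 0.324 to 0.422 in the other libraries.

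In NPMc+ against Mx the members stayed near the control. Called lower were 11 of 86 and higher 3, while 26.9% of all genes tested were lower and 12.4% higher, and 10.9% and 16.1% of genes at 100 CPM or more. At 1.5-fold, 1 member was lower and 1 higher, with 12.8% and 4.90% of all genes. The median log2 ratio was -0.03, against -0.06 over all genes; TMM scaling, which sets the trimmed mean of the log ratios between libraries to 0, added 0.14 to every log2 ratio here and in Flt3-ITD against Mx, so values from -0.14 to 0 change sign under it, and it took these medians to 0.11 and 0.08. With TMM scaling 4 members were called lower and 4 higher. The lowest were Rps28 (1.93-fold lower, 95% interval 1.90 to 1.95), the pseudogene Rps3a3 (1.45-fold), Rpl36al (1.43-fold) and Rpl39 (1.41-fold). The highest were Rpl6l (1.63-fold higher), the pseudogene Rps3a2 (1.30-fold), Rps27l (1.26-fold, 1.23 to 1.30) and Rps6 (1.18-fold), the small subunit protein phosphorylated by S6 kinase. Rps6 gave 4336 CPM in Mx and 5110 in NPMc+.

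In Flt3-ITD against Mx, 8 of 86 members were called lower and 3 higher, with 25.4% and 9.20% over all genes tested and 7.54% and 10.2% over genes at 100 CPM or more. At 1.5-fold, 2 members were lower and 2 higher, with 10.2% and 5.19% of all genes. The median was -0.09, against -0.10 over all genes, and TMM scaling moved these to 0.06 and 0.04. With TMM scaling 4 members were called lower and 5 higher, and with mitochondrial and ribosomal protein UMIs left out of the total 13 were called lower and 2 higher. The lowest were Rps3a3 (1.74-fold lower), the pseudogene Rps4l (1.71-fold), Rpl24 (1.47-fold) and Rpl21 (1.42-fold). Rpl21 gave 4617 CPM in Mx, 4624 with NPMc+, 3243 with Flt3-ITD and 2450 in the double mutant. The highest were the pseudogene Rpl32l (1.59-fold higher, 1.32 to 1.91), Rpl6l (1.54-fold), Rps3a2 (1.27-fold) and Rpl35 (1.23-fold). Rpl35 was the highest of the 4 libraries in Flt3-ITD, with 3478, 3231, 4290 and 1383 CPM.

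Set against the single mutants, the double mutant again had lower values for most members. Against NPMc+, 57 of 86 were called lower and 1 higher, where 13.6% of all genes were lower and 36.0% higher. At 1.5-fold, 50 members were lower and 0 higher, with 8.64% and 14.4% of all genes. The median was -0.76, against 0.20 over all genes. TMM scaling lowered every log2 ratio by 0.17 here and in the comparison with Flt3-ITD, and no member was then called higher in either. The lowest were Rps4l (4.88-fold lower), Rpl36al (4.84-fold), Rpl27 (4.49-fold) and Rpl23a (4.10-fold), and the highest Rpl3 (1.39-fold higher), Rplp0 (1.23-fold), Rps2 (1.22-fold) and Rpl4 (1.21-fold). Rps2, a protein of the messenger RNA entry channel, gave 4015, 3942, 4005 and 4824 CPM.

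Against Flt3-ITD, 54 of 86 were lower and 4 higher, where 13.2% of all genes were lower and 40.5% higher. At 1.5-fold, 45 members were lower and 0 higher, with 8.76% and 14.3% of all genes. The median was -0.70, against 0.25 over all genes. The lowest were Rpl36al (5.62-fold lower), Rpl27 (4.98-fold), Rps28 (4.86-fold) and Rpl23a (3.90-fold), and the highest Rpl3 (1.33-fold higher), Rplp0 (1.30-fold), Rpl10 (1.27-fold) and Rpl7l1 (log2 ratio 0.33). Rpl23a, which sits at the mouth of the exit tunnel, gave 4421 CPM in Mx, 3690 with NPMc+, 3510 with Flt3-ITD and 900 in the double mutant. The comparisons of the double mutant share its library and are not independent of each other.

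The departure of the double mutant from the product of the single mutant ratios, on the log2 scale, had a median of -0.73 over the members and 0.30 over all genes. It was at 80% of the product or less for 56 members and at 25% or more above it for 3, where 13.6% and 47.7% of all genes were, and 21.3% and 29.8% of genes at 100 CPM or more. The largest departures downward were those of Rpl36al at -1.98 (-2.06 to -1.90), Rpl27 at -1.89 and Rpl23a at -1.70. The largest upward were Rpl3 at 0.55 (0.53 to 0.56), Rplp0 at 0.36 and Rpsa at 0.34. TMM scaling lowered every departure by 0.31, to a median of -1.05 over the members and -0.02 over all genes, and with it 64 members were called lower and none higher (Rpl3 at 0.23, Rplp0 at 0.05 and Rpsa at 0.03). With mitochondrial and ribosomal protein UMIs left out of the total, 61 were lower and 1, Rpl3, was higher at 0.43.

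Other genes, most of them of the translation machinery, were read from lists. Fau encodes a ribosomal protein fused to a ubiquitin-like sequence, and Rack1 encodes a scaffold on the small subunit. Fau (399 nt coding sequence) gave 3285 CPM in Mx, 3238 with NPMc+, 3054 with Flt3-ITD and 1701 in the double mutant (log2 ratio to Mx -0.95). Rack1 (951 nt) gave 1508, 1526, 1376 and 1690 CPM (0.16). As among the members, the short gene was lower in the double mutant and the long one was not.

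A list of genes taken to carry pyrimidine runs held 18, most of them translation factors. It also held other genes, among them Nap1l1, Tpt1 and Hnrnpa1. The search at RefSeq starts found a run in 5 of the 13 with a window (38.5%), against 48.4% of members. Coding sequences of the 18 were longer, at 516 nt or more. None of the 18 was called lower in the double mutant than in Mx and 6 were called higher (median 0.27). Of genes at 100 CPM or more, 46.5% were called higher and 16.7% lower in that comparison (median 0.29). The lowest were Pabpc1, the poly(A)-binding protein (1415 CPM in Mx and 1426 in the double mutant), and Eif4b (203 and 206 CPM). The highest were the initiation factor 3 subunits Eif3m (1.54-fold higher) and Eif3e (1.46-fold). In NPMc+ and in Flt3-ITD none of the 18 was called against Mx, with medians of 0.09 and -0.01, against 0.08 and 0.02 over genes at 100 CPM or more, of which 16.1% and 10.2% were called higher and 10.9% and 7.54% lower. In NPMc+ they ran from Eef2 (log2 ratio -0.20) and Eef1g (-0.08) to Nap1l1 (0.24) and Tpt1 (0.26), and in Flt3-ITD from Eif4b (-0.15) and Pabpc1 (-0.11) to Nap1l1 (0.18) and Eif2s3x (0.19). Among the members, the median double mutant to Mx log2 ratio was -1.09 for the 30 with a run at the RefSeq start and -0.71 for the 32 without one there. Any member with a run at another start counts among the 32, and a link between run and ratio was not tested.

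Ribosome biogenesis genes, which make and process ribosomal RNA, did not share the low ratios of the members. In the double mutant 22 of 40 were called higher than in Mx and 3 lower (median 0.34, against 0.29 over genes at 100 CPM or more, of which 46.5% were called higher and 16.7% lower). The highest were Bop1 (1.78-fold higher) and Rpf2 (1.62-fold), and the lowest Nop10 (1.69-fold lower), whose coding sequence of 192 nt is the shortest of the list, and Ddx21 (1.43-fold lower). In NPMc+ 8 were higher and 1 lower (median 0.19), from Utp20 (1.32-fold lower) and Bms1 (1.11-fold) to Bop1 (1.71-fold higher) and Nhp2 (1.72-fold). Of all genes tested 12.4% were higher and 26.9% lower in that comparison (median -0.06), and of genes at 100 CPM or more 16.1% and 10.9% (median 0.08). In Flt3-ITD none was higher and 6 were lower (median -0.06), from Utp20 (1.62-fold lower) and Gnl3 (1.38-fold) to Polr1d (1.19-fold higher) and Bop1 (1.20-fold). There 9.20% of all genes were higher and 25.4% lower (median -0.10), and 10.2% and 7.54% of genes at 100 CPM or more (median 0.02). Npm1, which encodes nucleophosmin and is itself a biogenesis factor, gave 1628 CPM in Mx, 1820 with NPMc+, 1724 with Flt3-ITD and 2180 in the double mutant. The labels do not say at which locus the NPMc+ allele lies, and near-identical pseudogenes can share the reads of Npm1.

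Of the 9 genes listed for translation control (Mtor, Larp1, Myc and others), 3 were called higher and none lower in the double mutant than in Mx (median 0.14), where 32.5% of all genes were higher and 19.5% lower, also with a median of 0.14. In NPMc+ 2 were higher and 2 lower (median 0.06), where the shares of all genes were 12.4% and 26.9%. In Flt3-ITD none was higher and 2 were lower (median -0.13), where they were 9.20% and 25.4%.

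Retrocopies were 223 rows named after a matching gene with an added rt or -ps, the latter with or without a number. They took 0.846% of UMIs in Mx, 0.551% with NPMc+, 0.583% with Flt3-ITD and 0.285% in the double mutant. Adding the UMIs of the retrocopies named after a member to that member left the median double mutant to Mx log2 ratio at -0.78.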

How the data were processed

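The submitters deposited UMI count matrices, 1 per library, as whole numbers per gene and cell barcode. Per the submitters' processing notes these counts were made with STARsolo in STAR 2.7.0c on mm10; the annotation and the read length are not given in the sources used here. Kept barcodes had a minimum of 1000 UMIs and 500 genes, with no more than 10% of UMIs from mitochondrial genes; no doublet caller was run, and doublets were not removed. Counts were summed over kept cells per library (20943905 to 26965367 UMIs) and scaled to CPM of the library total.

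Each ratio of CPM has an exact (Clopper-Pearson) 95% interval, which covers counting error only, and a departure has an interval by the delta method. A gene was called higher at 25% or more above and lower at 80% or less, with no test, since each genotype is 1 library. Genes with a mean of at least 5 CPM were tested. A cell group was cells with UMIs of at least 3 genes of a marker list. Gene symbols of all 86 members were found in GENCODE M21 (GRCm38), used for coordinates and lengths, and start windows came from RefSeq. Coding lengths were found for 92.6% of tested genes. Alternatives were TMM scaling (edgeR 4.0.16), another library total, other filters and folds, equal cell weights, and subsets of cells. The interval script was tested on simulated counts. Python 3.11.15, numpy 2.4.6, scipy 1.17.1 and pandas 2.3.3 were used.

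The members and the gene lists were chosen with earlier results of these data known. Genes were named by rule: the 4 highest and 4 lowest ratios per comparison, the 4 highest and 4 lowest mean levels, the 3 largest departures each way, the 2 highest and 2 lowest of the other lists, and the fixed paralog, stalk, 5S particle and anemia genes. The split by length, the genes named only for it, and Rpl3 beside Rpl4 in the comparison with Mx were chosen after values were seen. Some genes that this rule selects are not reported here.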

Additional observations from a re-analysis of the deposited data

Results flagged for a closer look

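Rpl32l, a processed pseudogene of Rpl32 with a mean of 9.27 CPM, had a log2 ratio of 0.67 in Flt3-ITD against Mx and of -0.95 in the double mutant against NPMc+, so the presence of Flt3-ITD went with opposite directions on the 2 backgrounds. The difference was not tested. Rps27l, the paralog of Rps27, had a log2 ratio of 0.34 in NPMc+ against Mx and of -0.58 in the double mutant against Flt3-ITD, so the presence of NPMc+ went with opposite directions with and without Flt3-ITD. That difference was not tested either, and each value rests on 1 library per genotype. Most members were lower in the double mutant, with medians of -0.76 against NPMc+ and -0.70 against Flt3-ITD. Against Flt3-ITD, all 10 members with coding sequences under 300 nt were lower (median -1.65), and Rps27l was the least lowered of them.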

How the results depend on the processing

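No paired analysis was possible because each genotype is 1 library, and for the same reason no replicate could be left out. The median log2 ratio of the members minus that of all genes was -0.92 in the double mutant against Mx as reported and from -0.98 to -0.83 under the alternatives. TMM scaling turned the medians of the large and small subunit in NPMc+ against Mx to 0.11 and 0.12 and in Flt3-ITD against Mx to 0.070 and 0.043; it moved the median of all genes by more than 0.1 in both. Counts of members called moved as follows. With TMM they were 4 lower in NPMc+, 5 higher and 4 lower in Flt3-ITD, 2 higher in the double mutant against Mx and 0 higher against NPMc+, against Flt3-ITD and in its departure. With library totals free of mitochondrial and ribosomal protein UMIs, Flt3-ITD against Mx had subunit medians of -0.12 and -0.15 and 13 members lower, and the double mutant had 1 member higher against Mx and in its departure and 0 against NPMc+ and against Flt3-ITD. At 1.5-fold there was 1 higher and 1 lower in NPMc+, 2 lower in Flt3-ITD, 1 higher in the double mutant against Mx and 0 against NPMc+ and against Flt3-ITD. With a minimum of 100 CPM, 1 was higher in Flt3-ITD against Mx. The double mutant against Mx had 1 member higher with cells weighted equally, 3 in female cells and 3 without cycling cells. Against NPMc+ it had 3 higher in male cells, 2 in female cells and 5 without cells that carry markers of other lineages. Rps3a3 in the double mutant against Flt3-ITD turned to 0.064 in female cells. After thinning to 3000 UMIs, with cell groups called again, the difference between cells with and without stem cell markers in NPMc+ turned to -0.40 percentage points, and that between cycling and other cells in the double mutant to -1.15. With the groups as called before thinning these were 0.23 and 0.067. Both departure settings and this last one were chosen after seeing the data. The cause was not tested for the changed counts and medians. Counts of members lower in the double mutant were within 1.5 times of the reported count under each alternative. Depth limits the pseudogene members most: Rpl32l rests on 124 to 318 UMIs per library.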
